A study of Mus musculus with 6 samples.

Results

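Genes of sterol and fatty acid synthesis were followed in the kidney of mice that lack Selenbp1. A list of 32 genes, made up of the enzymes of both pathways and the regulators that control them, was matched to the gene names that the array files give their probes, control spots left out. The arrays hold 37074 gene names in all, and 31 of the 32 genes are among them, with 69 probes. No probe carries the name Acat2, an enzyme that joins acetyl-CoA units, and it was not analysed here. The samples are the left kidneys of male mice labeled C57BL/6J, aged 8 weeks and fasted for 20 h, of which 3 were WT (replicates 2, 3, and 4) and 3 were Selenbp1-KO (replicates 1, 2, and 3). The knockout is of the whole animal, and whole kidney RNA was measured on 6 one-color arrays, 1 per mouse. No fed mouse was measured on the arrays, so the values compare the genotypes in the fasted state alone.

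Cells make cholesterol from acetyl-CoA. The mevalonate steps build isoprenoid units and join them to farnesyl diphosphate, which is condensed to squalene, closed to lanosterol, and trimmed to cholesterol. Fatty acids are made from the same acetyl-CoA by the carboxylases and fatty acid synthase. When membranes are poor in sterol, Scap escorts the SREBP precursors out of the endoplasmic reticulum, and their cleaved forms enter the nucleus and raise the transcription of these enzymes. Insig proteins hold Scap back when sterol is plentiful. In the liver, fasting lowers fatty acid synthesis through SREBP-1c, the product of Srebf1.

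SREBPs bind the sterol regulatory element, often beside a CCAAT box bound by NF-Y, and the promoter of Hmgcs1, the synthase of HMG-CoA, is a classic example. Promoters from the RefSeq annotation of GRCm38.p6, from 250 bases before to 50 bases after a start, were searched for TCACNCCAC and for CCAAT on both strands. Of the 31 genes, 27 had a promoter in this table, with 36 promoters. Fdft1, Fdps, Sqle, and Stard4 had none. Of 32851 promoters in all, 1.24% held TCACNCCAC and 37.4% held CCAAT. Of the 36 promoters, 1 held TCACNCCAC, that of Hmgcs1, and 26 promoters of 25 genes held CCAAT. A match is a description of letters, and no match says only that these letters are not in this window. Shown are the 250 bases before the start of Hmgcs1, because it holds both motifs, and of Hsd17b7 and Fasn, picked after their values were seen because Hsd17b7 had the lowest p among the genes and Fasn the widest range. Each runs 5′ to 3′ on the strand of the gene, at chr13:119690101-119690350 (plus strand), chr1:169969206-169969455 (minus strand), and chr11:120824548-120824797 (minus strand). Capitals mark TCACNCCAC, and CCAAT or its reverse complement ATTGG; none of these overlap except a pair in Fasn that reads CCAATTGG.
Hmgcs1: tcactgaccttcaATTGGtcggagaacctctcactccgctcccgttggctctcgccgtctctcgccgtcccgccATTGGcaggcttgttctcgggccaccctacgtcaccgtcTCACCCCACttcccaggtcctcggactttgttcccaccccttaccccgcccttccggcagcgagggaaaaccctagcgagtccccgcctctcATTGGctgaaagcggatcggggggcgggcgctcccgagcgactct
Hsd17b7: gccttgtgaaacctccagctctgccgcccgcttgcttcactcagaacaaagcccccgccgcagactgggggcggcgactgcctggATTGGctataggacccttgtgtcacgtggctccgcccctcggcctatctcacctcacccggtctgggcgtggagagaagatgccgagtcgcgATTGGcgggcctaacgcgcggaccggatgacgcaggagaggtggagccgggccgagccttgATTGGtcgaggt
Fasn: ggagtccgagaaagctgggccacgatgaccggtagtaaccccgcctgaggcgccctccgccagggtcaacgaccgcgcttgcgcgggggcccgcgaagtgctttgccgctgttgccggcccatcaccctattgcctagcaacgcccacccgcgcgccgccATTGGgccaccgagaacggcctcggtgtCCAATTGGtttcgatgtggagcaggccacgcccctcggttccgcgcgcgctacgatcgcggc

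All values are log2 signals relative to the 75th percentile of the array, so that a difference of 1 is a doubling of the signal, and each gene is represented by the brightest of its probes. Levels of different probes cannot be set against each other, because each probe binds its target with its own strength. Selenbp1, the targeted gene, had a log2 signal of 7.07, 7.02, and 7.02 on the WT arrays and 4.13, 3.98, and 4.10 on the Selenbp1-KO arrays, differing by -2.96 (SE 0.098, limma adjusted p = 0.0021), so the arrays carry the genotype of their labels. All arrays lie on 1 slide, with WT replicates 2 and 3 in row 1 and WT replicate 4 with the 3 Selenbp1-KO arrays in row 2. From 51.8% to 55.5% of the spots on an array were well above background, and no spot was saturated. Nothing in the labels ties the arrays to litters or cages. The limma p-values and SEs combine the spread between these mice with a variance pooled over all probes tested. Markers of the proximal tubule (6 genes) and of the distal nephron and collecting duct (6 genes) were well above background on all arrays with 0 called, and those of podocytes had 1 of 4 called, Synpo. The median log2 difference of all 36778 genes tested was 0.13, and that of the 19167 genes well above background on every array of 1 genotype was 0.017. With quantile normalization, these medians were 0.0037 and -0.0070.

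None of the 31 genes passed the threshold of the methods, an unadjusted p under 0.05, when the genotypes were compared with limma. Of the 36778 genes tested, 7.99% passed it, 6.87% as higher and 1.13% as lower in Selenbp1-KO kidneys. Among genes well above background, which all 31 genes are on all 6 arrays, 5.80% passed. The lowest unadjusted p among the 31 genes was 0.0555 and the lowest adjusted p was 0.279. The methods' t-test on the same values called 2 of them, Hsd17b7 lower and Pmvk higher, against 7.73% of all genes, and limma after quantile normalization called 3, Pmvk and Mvd higher and Hsd17b7 lower. Under quantile normalization, 9.12% of all genes were called, 5.26% as higher and 3.86% as lower, and 14.0% of genes well above background. The 31 differences, KO minus WT, ran from -0.28 to 0.28 with a median of 0.053, and 18 were above 0 and 13 below. Quantile normalization put the median at -0.021, with 14 above 0 and 17 below.

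The limma intervals give the sizes of difference that these arrays allow in a fit without the array row, with the variance of each gene drawn toward the pooled one. They cover the brightest probe of each gene alone and do not take in any shift between the rows. The 95% interval of the difference lay within 0.5 of 0 on the log2 scale for 24 of the 31 genes and within 1 of 0 for all 31. The outermost bounds were -0.56, for Hsd17b7, and 0.84, for Fasn. In 2 of the 31 genes, Pmvk and Hsd17b7, the 3 arrays of one genotype all lay above the 3 of the other, against 14.1% of all genes and 19.0% of genes well above background.

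**Figure D1:**
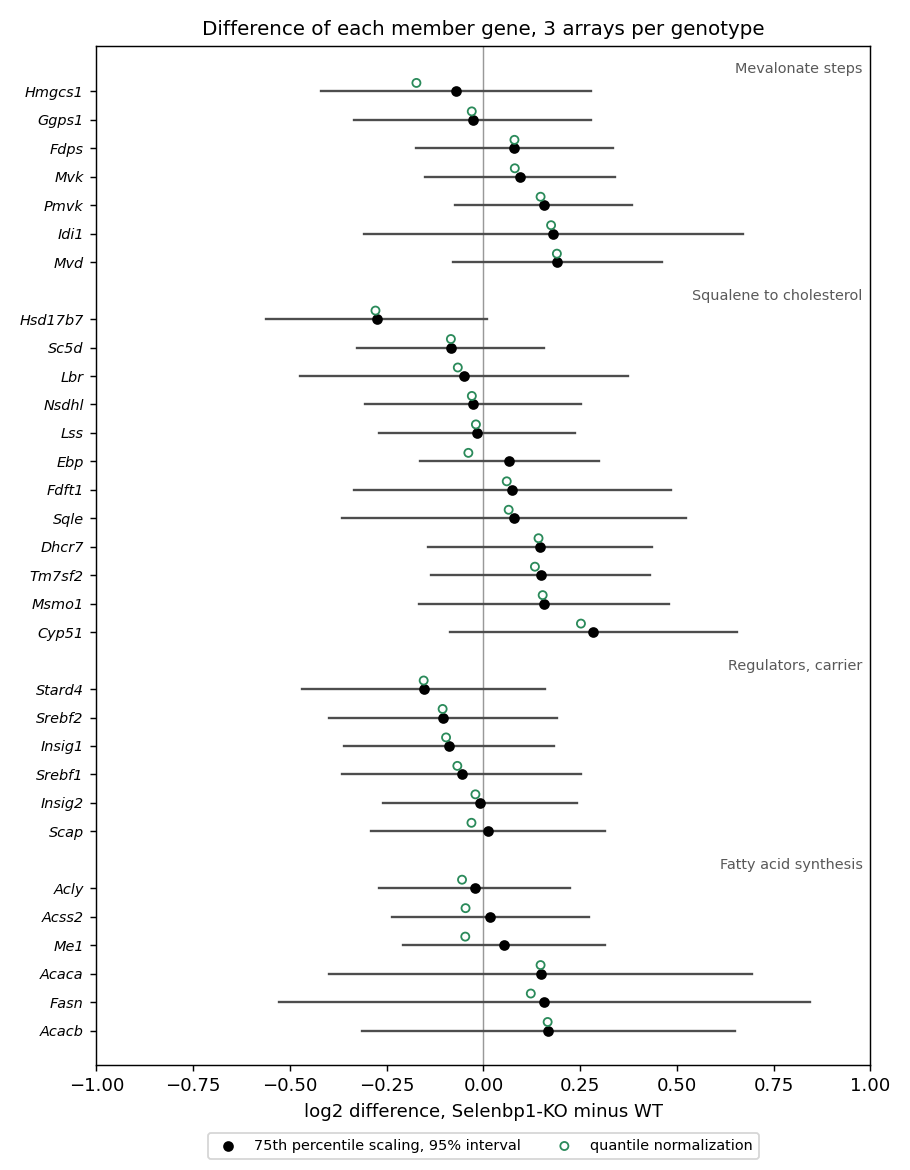
Log2 difference, Selenbp1-KO minus WT (horizontal axis), of each of the 31 genes by its brightest probe, in 4 groups by role. Filled points and bars are the limma difference and its 95% interval with 3 arrays per genotype, open circles the difference after quantile normalization, and every interval holds 0.

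The mevalonate steps were represented by 7 genes, with a median difference of 0.094, 5 above 0 and 2 below. Pmvk, phosphomevalonate kinase, had log2 signals of 2.63, 2.54, and 2.62 in WT kidneys and 2.79, 2.77, and 2.71 in Selenbp1-KO kidneys. All 3 Selenbp1-KO arrays were above all WT arrays, with means of 2.60 ± 0.05 and 2.76 ± 0.04 (SD, n = 3) in WT and Selenbp1-KO kidneys. The difference of 0.16 (SE 0.094, limma unadjusted p = 0.150, adjusted p = 0.404) did not pass. Its second probe gave 1.62, 1.71, and 1.56 in WT and 1.75, 1.81, and 1.73 in Selenbp1-KO kidneys, again without overlap, a difference of 0.14 (SE 0.098). Both probes read the same RefSeq transcript and are not independent mice. Pmvk lies on chromosome 3 of mm9 (brightest probe 89272867 to 89272926), 5.48 Mb from the Selenbp1 probe, and Fdps lies 5.85 Mb from it; the part of this position in their values was not tested.

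Mvd, which decarboxylates mevalonate diphosphate to the first isoprenoid unit, had log2 signals of 1.06, 1.17, and 1.25 in WT and 1.44, 1.25, and 1.38 in Selenbp1-KO kidneys. Only Selenbp1-KO replicate 2 fell within the WT range, and the difference was 0.19 (SE 0.11, limma unadjusted p = 0.134). Idi1, the isomerase of these units, differed by 0.18 (SE 0.20), Mvk, mevalonate kinase, by 0.094 (SE 0.10), and Fdps, farnesyl diphosphate synthase, by 0.080 (SE 0.10). Hmgcs1 had log2 signals of 5.83, 6.15, and 6.20 in WT and 6.12, 5.87, and 5.98 in Selenbp1-KO kidneys, differing by -0.070 (SE 0.14). The genotypes overlapped widely in this gene. Ggps1, which makes the geranylgeranyl group of proteins, differed by -0.028 (SE 0.13).

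From squalene synthase to cholesterol, 12 genes had a median difference of 0.071, 7 above 0 and 5 below. Hsd17b7, a reductase of the sterol 3-keto group that also acts on estrone, had log2 signals of 1.93, 1.91, and 1.99 in WT and 1.76, 1.49, and 1.76 in Selenbp1-KO kidneys. Every Selenbp1-KO array was below every WT array, with means of 1.95 ± 0.04 and 1.67 ± 0.15 (SD, n = 3). The difference of -0.28 (SE 0.12, 95% interval -0.56 to 0.0089, limma unadjusted p = 0.0555, adjusted p = 0.279) was just outside the threshold. Its brightest probe lies on chromosome 1 of mm9 at 171882591 to 171882650. The other probes of the gene had differences of -0.38 (SE 0.39), on an Ensembl transcript, and -0.16 (SE 0.13), on the same transcript as the brightest. The probe on the Ensembl transcript was well above background on 3 WT arrays and 1 Selenbp1-KO array, so no fold is read from it. All 3 probes were below 0 and none was called, and they read the same mice. The difference stayed below 0 in all 21 alternative settings tried, from -0.32 to -0.19, and was called in 7 of them. All settings use the same mice, and the 7 include both quantile normalization and the authors' table, which is itself quantile normalized. Quantile normalization called 14.0% of genes well above background, and the methods' t-test 7.73% of all genes. The count of 7 is therefore not read as further support.

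Cyp51, the lanosterol demethylase, had the highest difference of the 31 genes, 0.28 (SE 0.15, limma unadjusted p = 0.110). Its log2 signals were 3.08, 3.11, and 3.44 in WT and 3.65, 3.32, and 3.52 in Selenbp1-KO kidneys, and Selenbp1-KO replicate 2 was below WT replicate 4. Its second probe differed by 0.11. Msmo1, the methyl sterol oxidase that follows, differed by 0.16 (SE 0.13), Tm7sf2, a sterol C14 reductase, by 0.15 (SE 0.12), and Dhcr7, which makes cholesterol in the last step, by 0.15 (SE 0.12). Fdft1, squalene synthase, differed by 0.075 (SE 0.17), Sqle, squalene epoxidase, by 0.079 (SE 0.18), and Ebp, a sterol isomerase, by 0.067 (SE 0.095). Below 0 were Lss, which closes squalene epoxide to lanosterol, at -0.017 (SE 0.10), Nsdhl at -0.026 (SE 0.11), Lbr at -0.051 (SE 0.17), and Sc5d at -0.085 (SE 0.099). With quantile normalization, Ebp turned to -0.039.

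The 6 regulators and carriers had a median difference of -0.072, 1 above 0 and 5 below. Srebf1 had log2 signals of 2.10, 2.08, and 1.92 in WT and 1.91, 2.17, and 1.86 in Selenbp1-KO kidneys, differing by -0.056 (SE 0.13). Srebf2, the SREBP that mainly serves sterol genes, gave 1.89, 2.11, and 1.81 in WT and 1.84, 1.91, and 1.75 in Selenbp1-KO kidneys, differing by -0.10 (SE 0.12). A dimmer second probe of Srebf2 had the opposite sign, 0.33 (SE 0.16), without overlap of the genotypes, and was not called. Scap differed by 0.012 (SE 0.12), which turned to -0.031 with quantile normalization, and Insig1 and Insig2 by -0.089 (SE 0.11) and -0.0093 (SE 0.10). Stard4, a carrier of cholesterol between membranes and itself a sterol-responsive gene, had the lowest value of the group, -0.15 (SE 0.13). The levels of mRNA say nothing of how much SREBP was cleaved.

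The 6 genes of fatty acid synthesis had a median difference of 0.10, 5 above 0 and 1 below. They split by how much they varied between mice. Acly, which yields cytosolic acetyl-CoA from citrate, differed by -0.023 (SE 0.10), Acss2, which makes it from acetate, by 0.018 (SE 0.10), and Me1, malic enzyme and a source of NADPH, by 0.053 (SE 0.11). Their ranges over the 6 arrays were 0.15, 0.17, and 0.21 on the log2 scale. With quantile normalization, Acss2 turned to -0.046 and Me1 to -0.047.

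Fasn, fatty acid synthase, and Acaca and Acacb, the acetyl-CoA carboxylases that make its substrate malonyl-CoA and the malonyl-CoA that restrains fat oxidation, had the 3 widest ranges of the 31 genes, 1.01, 0.82, and 0.65. Of all genes well above background, 7.29% had a wider range than Fasn, 11.99% than Acaca, and 19.44% than Acacb. Ranges of this size were therefore not confined to these 3 genes. Fasn had log2 signals of 3.83, 3.43, and 3.35 in WT and 3.70, 4.20, and 3.18 in Selenbp1-KO kidneys. Acaca had 1.17, 1.13, and 1.03 in WT and 1.41, 1.59, and 0.77 in Selenbp1-KO kidneys. Acacb had 0.98, 1.01, and 0.77 in WT and 1.24, 1.34, and 0.69 in Selenbp1-KO kidneys. By the brightest probes of all 3 genes, Selenbp1-KO replicate 2 was the highest array and Selenbp1-KO replicate 3 the lowest. In these probes the Selenbp1-KO kidneys enclosed the WT kidneys on both sides. A dimmer Acacb probe, well above background on all arrays, had Selenbp1-KO replicate 1 highest and WT replicate 2 lowest. A dimmer Acaca probe, also well above background on all arrays, had Selenbp1-KO replicate 1 highest and Selenbp1-KO replicate 3 lowest. The differences of the brightest probes were 0.16 (SE 0.28), 0.15 (SE 0.22), and 0.17 (SE 0.20). Without Selenbp1-KO replicate 3, Acaca was called at 0.39 (limma unadjusted p = 0.0331) and Acacb at 0.37 (limma unadjusted p = 0.0472), against 5.70% of all genes called as higher in that fit, while without Selenbp1-KO replicate 2 the difference of Fasn was -0.094 and that of Acaca -0.019. The 3 genes were set together after their values were seen.

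**Figure D2:**
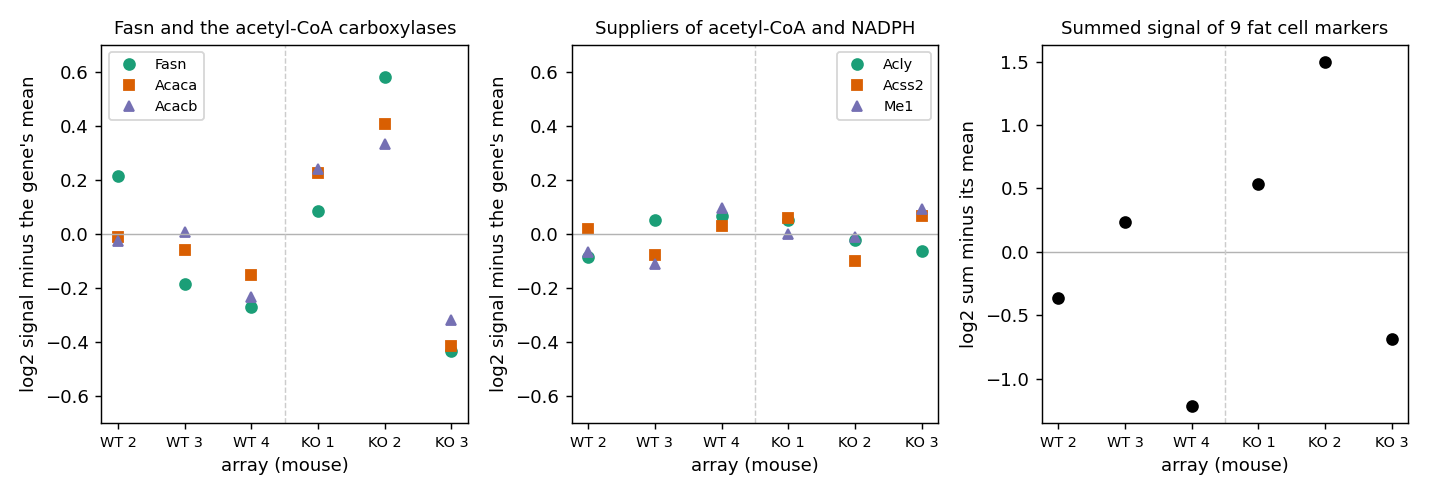
Left and middle, log2 signal on each array minus the mean of the gene over the 6 arrays (vertical axis), for Fasn, Acaca, and Acacb and for Acly, Acss2, and Me1. Right, log2 of the summed linear signal of 9 fat cell markers on each array minus its mean; the highest array is Selenbp1-KO replicate 2 in the left and right panels.

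Fat cell markers varied over the same arrays. All 9 of 9 markers were well above background on all arrays and all 9 had differences above 0, with a median of 0.75 and 0 called. Their summed linear signal, relative to the 75th percentile, was 49.1, 74.2, and 27.2 in WT and 91.4, 178, and 39.3 in Selenbp1-KO kidneys. Selenbp1-KO replicates 2 and 1 were the highest arrays of the sum, as for the brightest probes of Acaca and Acacb. The lowest array of the sum was WT replicate 4, where that of the 3 genes by their brightest probes was Selenbp1-KO replicate 3. Ucp1, the uncoupling protein of brown fat, had log2 signals of 0.39, 0.016, and -1.32 in WT and 1.29, 2.06, and -3.42 in Selenbp1-KO kidneys, which is the order of the arrays in Acaca. Plin1, another of the fat cell markers, had -1.84, -1.93, and -2.18 in WT and -0.70, -0.37, and -2.65 in Selenbp1-KO kidneys, in the same order. Thrsp, a lipogenic nuclear protein, had 1.42, 1.42, and 0.80 in WT and 2.09, 2.56, and 0.69 in Selenbp1-KO kidneys, with the same highest and lowest arrays. Ucp1, Plin1, and Thrsp were picked after their values were seen. The other fat cell markers had another lowest array, WT replicate 4 in Adipoq, Cfd, Cidec, Fabp4, Lipe, and Retn and WT replicate 2 in Lep. In whole kidney RNA, fewer cells of a type and less RNA per cell cannot be told apart, and the part of fat tissue in the values of Fasn, Acaca, and Acacb was not tested.

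Of 9 macrophage markers, 7 were called, all higher in Selenbp1-KO kidneys, and their summed signal ran from 15.5 to 19.1 in WT and from 21.5 to 23.3 in Selenbp1-KO kidneys. All 4 red blood cell markers were called as higher, with sums from 292 to 387 and from 423 to 647. Of 9 adrenal cortex markers, 4 were not well above background on any array and none was called at an unadjusted p under 0.05 in limma, the sums running from 0.740 to 0.896 and from 0.852 to 0.923. The part of these cells in the values of the 31 genes was not tested.

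Among the sterol enzymes, the widest ranges belonged to Idi1, Sqle, Lbr, and Cyp51, and in each of them WT replicate 4 was the highest WT array. Sqle had log2 signals of 2.70, 2.62, and 3.23 in WT and 3.00, 2.93, and 2.86 in Selenbp1-KO kidneys. Idi1 had 1.70, 1.62, and 2.21 in WT and 2.27, 1.88, and 1.92 in Selenbp1-KO kidneys. Lbr, a C14 reductase that is also the lamin B receptor, had 2.49, 2.34, and 2.92 in WT and 2.63, 2.49, and 2.48 in Selenbp1-KO kidneys. WT replicate 4 was above the mean of the other WT replicates by 0.57 in Sqle, 0.55 in Idi1, 0.51 in Lbr, and 0.35 in Cyp51. WT replicate 4 is the WT array that shares row 2 with the Selenbp1-KO arrays, and mouse and row cannot be told apart in it. These 4 genes were set together after their values were seen.

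**Figure D3:**
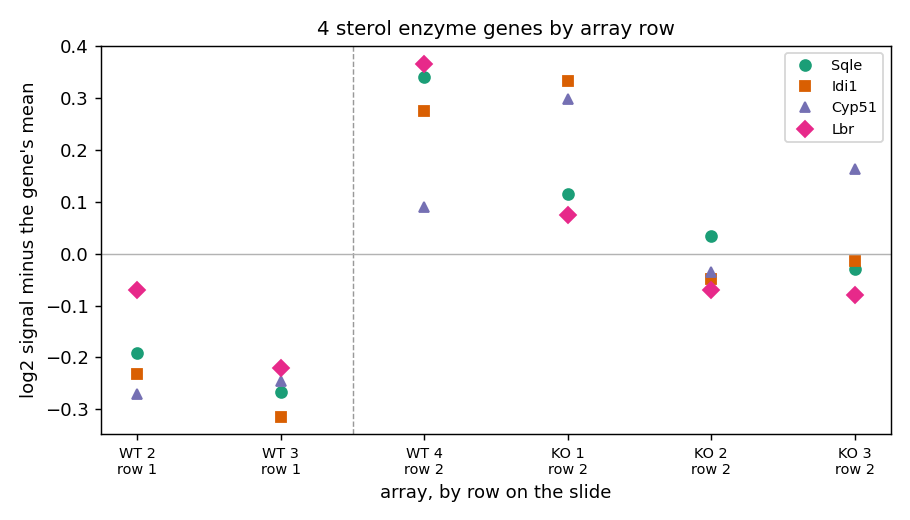
Log2 signal minus the mean of the gene over the 6 arrays (vertical axis) of Sqle, Idi1, Cyp51, and Lbr, with the arrays ordered by their row on the slide (horizontal axis). WT replicates 2 and 3, the arrays of row 1, lie at or below the mean, and WT replicate 4 lies above it in all 4 genes.

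Against WT replicates 2 and 3 alone, Sqle differed by 0.27 (limma unadjusted p = 0.0448) and Cyp51 by 0.40 (limma unadjusted p = 0.0297), both called. That fit called 30.4% of all 36778 genes tested as higher in Selenbp1-KO kidneys, dim genes included. The share among genes well above background was not taken for this fit, so 2 of 31 is not read against it. With the array row as a block, which sets the Selenbp1-KO arrays against WT replicate 4 alone, Sqle differed by -0.30 (limma unadjusted p = 0.0656) and Lbr by -0.39 (limma unadjusted p = 0.0391, called), and the median of all 31 genes was 0.018. This fit called 1 of the 31 genes, against 5.51% of genes well above background, and as lower 3.62% of all genes. Idi1 differed by -0.19 in this fit, so the direction of Sqle and Idi1 depended on which WT arrays were used. Of the 31 genes, 18 had WT replicate 4 above both other WT arrays, against 48.2% of genes well above background, and 9 had all arrays of row 2 above those of row 1, against 18.2%. None had all arrays of row 2 below, and the share of genes with that order was not taken, so this count is not read as a result. The median range over the 6 arrays was 0.34 for the 31 genes and 0.36 for genes well above background.

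**Figure D4:**
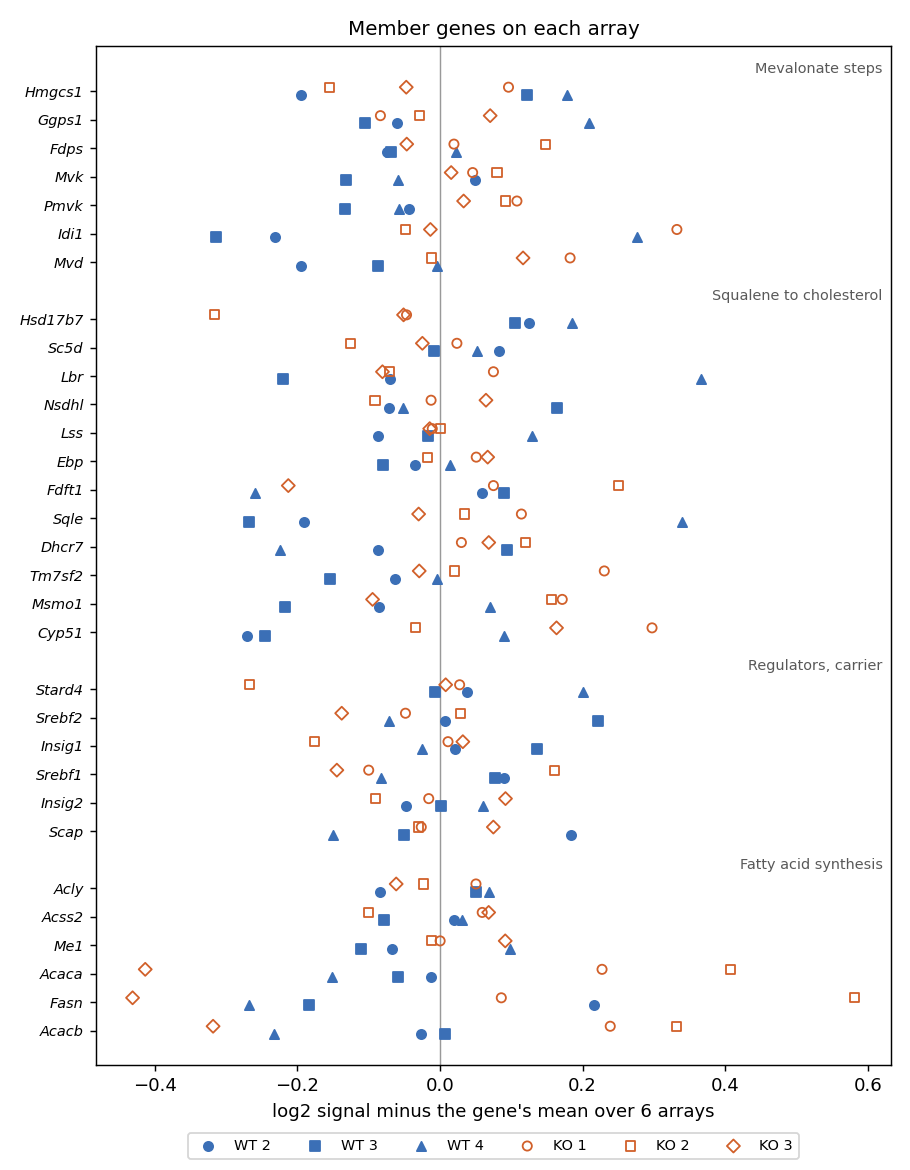
Log2 signal on each array minus the mean of the gene over the 6 arrays (horizontal axis), for each of the 31 genes by role, with filled symbols for the 3 WT and open symbols for the 3 Selenbp1-KO arrays. The symbols of the genotypes are separated in Pmvk and Hsd17b7, and Fasn, Acaca, and Acacb spread widest, by 1.01, 0.82, and 0.65.

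Of the 31 genes, 22 have several probes. The 38 other probes, of which 37 were tested, showed what the choice of the brightest probe leaves out. They had differences from -0.38 to 0.62, with 25 above 0 and 12 below, and 24 had the sign of the brightest probe of their gene. Of the 37, 27 were well above background on all 6 arrays. Another 5 did not reach that level on a single array, and 4 of these had differences above 0. The 0.62 came from 1 of them, an Acaca probe. The -0.38 came from the Hsd17b7 probe that reached it on 1 Selenbp1-KO array, so neither end of the range is read as a fold. Over all probes tested, 7.98% were called, 6.47% as higher, and 13.3% did not overlap, and of the 37 other probes 2 were called and 5 did not overlap. The second probe of Mvk (chromosome 5 of mm9, 114902394 to 114902453) had log2 signals of -2.08, -2.05, and -2.24 in WT and -1.55, -1.76, and -1.79 in Selenbp1-KO kidneys, and rose by 0.42 (SE 0.12, limma unadjusted p = 0.0122, adjusted p = 0.279). The second called probe belongs to Acacb (chromosome 5, 114667674 to 114667733), with -2.79, -2.51, and -2.23 in WT and -1.87, -2.03, and -2.06 in Selenbp1-KO kidneys, and rose by 0.52 (SE 0.17, limma unadjusted p = 0.0199, adjusted p = 0.279). The brightest probes of these genes, which read another part of the transcripts, differed by 0.094 and 0.17 and were not called, so within each gene the probes gave different answers at the threshold.

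Genes around these pathways, 65 in lists of their own, gave 2 calls, both higher in Selenbp1-KO kidneys, beside the 7.99% called and 6.87% called as higher over all genes. None of 18 further genes of sterol and isoprenoid synthesis and SREBP processing was called at an unadjusted p under 0.05 in limma, 1 of 25 genes of cholesterol uptake, storage, and export was, and so was 1 of 22 other lipogenic genes. Npc1l1, the intestinal cholesterol transporter, was not well above background on any array and has no fold here. Pnpla3, a lipase-like protein of lipid droplets under SREBP-1c control, was well above background on 1 WT and 3 Selenbp1-KO arrays, with log2 signals of -5.54, -4.93, and -4.83 in WT and -4.45, -3.88, and -4.77 in Selenbp1-KO kidneys. The fit gave a difference of 0.73 (SE 0.29, limma unadjusted p = 0.0449, adjusted p = 0.279), in which 2 of the 3 WT signals were not well above background, so no fold is read from it. The median difference of the 65 genes was -0.0025, with 31 above 0 and 34 below, beside 0.053 for the 31 synthesis genes. With quantile normalization the order turned, with medians of -0.012 for the 65 genes and -0.021 for the 31 synthesis genes.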

How the data were processed

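Kidney RNA of 3 WT and 3 Selenbp1-KO mice was labeled with Cy3. The authors deposited for each array the Feature Extraction output (version 10.7.1.1 per the file headers, 9.5.1.1 per the labels), with linear intensities, background-subtracted but not scaled between arrays, and a detection p-value per spot. The deposited table of all samples holds quantile normalized intensities (median 24.4 in every column) and was an alternative. Each array has 62976 spots, 59305 of them not controls, for 56605 probes. The log2 intensity minus that of the 75th percentile of the array was used; flagged outlier spots were left out, and spots of a probe were averaged. Testing took in 56097 probes, those whose detection p was under 0.05 on 1 array or more, and used limma 3.58.1 in R 4.3.3, two-sided, at an unadjusted p under 0.05, with Benjamini–Hochberg adjustment over all probes. A gene is its brightest probe over the 6 arrays, by the name in the files; 55 of 69 probes matched RefSeq (GRCm38.p6), all with the same symbol. Probe coordinates are those of the files (mm9). The number of arrays limits the precision: 3 against 3 allow an exact permutation p of 0.1 at the lowest.

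The genes and lists were chosen with earlier results of these data known. Named were all 31 genes, their other probes where called, genes of the other pathway lists where called, Synpo, and Selenbp1. Also named, though not called, were fat cell markers, Thrsp, Scd1, and other probes of Pmvk, Hsd17b7, Cyp51, Srebf2, and Acaca. The comparison was tested on simulated data. Further alternatives were normexp (offset 50), median scaling, other filters, flagged spots kept, trend and robust options (statmod 1.5.0), the methods' t-test, blocks for array row and replicate number, leaving out each array, and the mean of a gene's probes. Settings that combine quantile normalization with the row, the filter, or the loss of WT replicate 4 were chosen after seeing the data. Replicate numbers 2 and 3 are shared by the genotypes, and the deviations of these arrays correlated at 0.171 and 0.187. Pairs of arrays with different numbers correlated from -0.326 to 0.186. With only 2 shared numbers and such values among the other pairs, the numbers were taken as names.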

Additional observations from a re-analysis of the deposited data

How the results depend on the processing

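Of 31 genes and 21 alternative settings, 19 genes were called under none and 12 under at least 1. The number of genes called, 0 with the main settings, was 1 (Hsd17b7) with normexp, with the well above background filter, and with quantile normalization and that filter together, 3 with quantile normalization, with the authors' table (both Hsd17b7, Mvd, and Pmvk), and with trend and robust options (Cyp51, Hsd17b7, and Mvd), 2 with the methods' t-test, 1 with the array row as a block (Lbr), 5 with quantile normalization and the row together (Dhcr7, Ggps1, Lbr, Lss, and Sqle), 1 with the mean over a gene's probes (Mvk), 4 with quantile normalization without WT replicate 4 (Cyp51, Mvd, Pmvk, and Sqle), and from 0 to 2 on leaving out each array. The other pathway genes called, 2, became 4 with quantile normalization, 5 with the authors' table, 6 with trend and robust options, 5 with the t-test, 8 with quantile normalization and the row, 4 with quantile normalization and the filter, 4 with the mean of probes, 8 with quantile normalization without WT replicate 4, and from 0 to 4 on leaving out each array. The probes called, 4479, became 14616 with median scaling, 2841 with the filter, 7536 with trend and robust options, 18430 with the replicate number as a block, 2914 with quantile normalization and the filter, and from 2024 (without WT replicate 2) to 17585 (without WT replicate 4) on leaving out each array. The replicate block called 0 of the 31 genes and 3 of the others. Of the 56097 probes tested, trend and robust options called 7536, so calls were more frequent throughout in that setting. Where no share of all genes is given for a setting, its count of genes called is not read as a result about the 31 genes. Of 651 differences, 68 turned sign, all of genes whose main difference was at most 0.18 in size, and 12 genes kept their sign throughout. The cause was not tested. With normexp background correction, the difference turned sign to 0.0061 for Insig1 and -0.032 for Acss2. With quantile normalization, the difference turned sign to -0.039 for Ebp, -0.031 for Scap, -0.046 for Acss2, and -0.047 for Me1. With scaling by the median, the difference turned sign to -0.0047 for Scap. With the authors' table, the difference turned sign to -0.027 for Scap and -0.021 for Acss2. With the array row as a block, the difference turned sign to -0.19 for Idi1, -0.30 for Sqle, 0.039 for Nsdhl, 0.055 for Srebf1, 0.019 for Srebf2, -0.023 for Acss2, and -0.072 for Me1. With the replicate number as a block, the difference turned sign to 0.10 for Ggps1, -0.055 for Fdft1, 0.045 for Lss, 0.070 for Lbr, -0.044 for Scap, and 0.024 for Insig2. With quantile normalization and the array row together, the difference turned sign to -0.17 for Idi1, -0.29 for Sqle, 0.043 for Nsdhl, -0.034 for Ebp, 0.065 for Srebf1, 0.037 for Srebf2, -0.056 for Acss2, and -0.12 for Me1. With quantile normalization and the filter together, the difference turned sign to -0.039 for Ebp, -0.031 for Scap, -0.046 for Acss2, and -0.047 for Me1. With quantile normalization without WT replicate 4, the difference turned sign to 0.060 for Ggps1, -0.061 for Fdft1, 0.039 for Lss, 0.090 for Lbr, -0.041 for Ebp, -0.11 for Scap, -0.041 for Acss2, and -0.0086 for Me1. With the mean over a gene's probes, the difference turned sign to 0.036 for Ggps1, 0.11 for Srebf2, and 0.012 for Insig2. Leaving out each array in turn gave differences from -0.019 to 0.39 for Acaca, from -0.071 to 0.0056 for Acly, from -0.017 to 0.073 for Acss2, from -0.094 to 0.41 for Fasn, from -0.037 to 0.20 for Fdft1, from -0.088 to 0.069 for Ggps1, from -0.19 to 0.0012 for Hmgcs1, from -0.057 to 0.033 for Insig2, from -0.17 to 0.12 for Lbr, from -0.064 to 0.044 for Lss, from -0.069 to 0.049 for Nsdhl, from -0.060 to 0.11 for Scap, from -0.035 to 0.27 for Sqle, and from -0.15 to 0.0022 for Srebf1.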

Other observations

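Scd1, the stearoyl-CoA desaturase that uses the products of Fasn, was picked after its values were seen. Its log2 signals were 2.99, 3.18, and 2.96 in WT and 3.73, 3.92, and 2.34 in Selenbp1-KO kidneys, differing by 0.29 (SE 0.42). As for the brightest probes of Fasn, Acaca, and Acacb, Selenbp1-KO replicate 2 was the highest array and Selenbp1-KO replicate 3 the lowest, and the difference was not called. Adipoq, the fat cell hormone adiponectin, had 0.55, 1.05, and -0.62 in WT and 1.66, 2.70, and 0.19 in Selenbp1-KO kidneys, with WT replicate 4 the lowest array.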
